A study of Mus musculus with 12 samples.

Results

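Small nuclear RNA (snRNA) genes that gave signal in RNA of Smn-depleted mouse motoneurons numbered 40 of the 1387 snRNA genes and of the 39174 genes in each deposited table. They were chosen by a rule on the measured values, an FPKM above 0 in at least 6 of the 12 tables. FPKM is the number of read fragments assigned to a gene, adjusted for transcript length and library size. Total RNA had been taken from primary motoneuron cultures of CD-1 mice with knocked-down Smn, grown in microfluidic chambers that separate axons from cell bodies and dendrites. Each compartment gave 6 libraries, and neurons with normal Smn were not analysed here. The labels give neither the knockdown agent nor the age of the mice, and they leave unsaid whether the replicates came from separate cultures, so p-values measure only the spread between libraries, which may be technical.

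Spliceosomal snRNAs are short RNAs that, with bound proteins, recognise and remove introns. U1 pairs with the start of the intron and U2 with its branch point, and U4, U5 and U6 enter together as a tri-snRNP in which U4 is paired to U6 until U6 is needed. U1, U2, U4 and U5 leave the nucleus, receive a ring of Sm proteins from the SMN complex, of which Smn is the founding member, and return. U6 carries a ring of LSm proteins instead and is not a substrate of that step.

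By sequence, 21 of the 40 genes belonged to U1, 11 to U2, 5 to U5 and 2 to U4, and Gm25541 matched none of the family-named snRNA genes compared. No gene of the snRNA families U4atac and U6atac was among those compared, so whether Gm25541 belongs to either was not tested. The U4 name rests on a match of Gm24265 and Gm24407 to the gene that the deposited tables call U4 (chr9:22772751-22772835), with 87.7% identity over 73 bases. All 40 had the same coordinates in GENCODE M21, the source of the sequences below, on mouse build GRCm38. The sequences shown are those on which the family comparisons turn, 5′ to 3′ as transcribed, with a motif of the Sm site type in capitals. Gm24265 and Gm24407 are U4, Rnu1a1 is U1a, Rnu1b1 is U1b and Rnu2-10 is U2. Gm23240 is a shortened U1 copy and Gm25541 was not assigned to a family, and neither holds such a motif.
Gm24265: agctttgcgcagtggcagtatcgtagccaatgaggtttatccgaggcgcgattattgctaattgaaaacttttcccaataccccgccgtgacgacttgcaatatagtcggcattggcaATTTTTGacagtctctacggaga
Gm24407: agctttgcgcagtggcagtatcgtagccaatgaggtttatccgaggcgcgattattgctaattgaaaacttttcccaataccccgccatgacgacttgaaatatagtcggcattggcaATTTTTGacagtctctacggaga
Rnu1a1: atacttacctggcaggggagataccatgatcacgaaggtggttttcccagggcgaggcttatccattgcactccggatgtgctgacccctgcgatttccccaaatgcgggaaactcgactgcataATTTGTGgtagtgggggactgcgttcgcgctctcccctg
Rnu1b1: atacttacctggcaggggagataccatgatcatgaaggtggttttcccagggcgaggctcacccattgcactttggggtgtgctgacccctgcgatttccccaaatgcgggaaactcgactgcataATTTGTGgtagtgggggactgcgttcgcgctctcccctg
Rnu2-10: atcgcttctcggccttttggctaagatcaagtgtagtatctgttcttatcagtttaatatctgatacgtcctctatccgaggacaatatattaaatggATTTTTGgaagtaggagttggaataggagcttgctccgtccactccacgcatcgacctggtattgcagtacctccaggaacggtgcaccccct
Gm23240: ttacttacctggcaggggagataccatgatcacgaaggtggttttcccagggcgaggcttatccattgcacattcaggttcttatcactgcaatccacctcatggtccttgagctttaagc
Gm25541: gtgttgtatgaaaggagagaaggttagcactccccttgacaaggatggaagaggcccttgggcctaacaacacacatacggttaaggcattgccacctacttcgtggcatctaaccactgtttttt

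An Sm-type motif was present in 38 of the 40 transcripts, against 17.5% of the 1383 snRNA transcripts of GENCODE M21. It was searched in 3 spellings on the transcribed strand only, and no spelling lies within another. ATTTGTG was found in 20 members, all of U1, against 12.9% of all snRNA transcripts. ATTTTTG was found in 13 members, those of U2 and U4, against 3.33%, and ATTTTTTG in the 5 of U5, against 1.37%. The spellings go with the families U1, U2, U4 and U5, to which every member but Gm25541 had been assigned by sequence. Among all snRNA genes, 833 matched U6, which carries LSm proteins instead. The contrast with all snRNA transcripts therefore restates family membership and is no separate result. A match is a description of the letters and not of binding.

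Copies of a family were nearly the same, so their values were not independent. The 40 transcripts had 26 distinct sequences. Of the 13 U1a genes, 7 had exactly the sequence of Rnu1a1, and 4 of the 11 U2 genes had that of Rnu2-10. Gm24265 and Gm24407 agreed at 139 of 141 positions and differed by G88A and C99A, counted from the 5′ end of Gm24265. Rnu1b1, a U1b gene of the kind known in mouse as embryonic U1, differed from Rnu1a1 by C33T, T60C, T62C, C73T, C74G, A77G and 1 gap. A stretch of 70 bases of Gm23240 was identical to Rnu1a1, out of its 121 bases. Values identical to within 0.1% in every library were given to 4 sets of copies holding 9 members, such as Rnu2-10 and Gm24950. How reads matching several copies were assigned is not stated in the labels or the files, and reads inside identical copies cannot be told apart.

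The genes lay in clusters. A run of 7 U1a genes occupied chr12:54696782-54738622, and 7 of the 8 U1b genes lay in chr3:96328425-96488893. U2 genes stood at chr11:101604850-101658428, with 5 copies, and at chr1:72226240-72255198, with 4. The U4 genes were neighbours, Gm24265 at chr5:115489459-115489599 and Gm24407 at chr5:115490254-115490394, both on the plus strand and outside any other annotated gene. Of the 40 members, 14 lay inside another gene, among them Rnu1a1 (chr11:87422867-87423030) and Gm22068 in an intron of Tex14 on the same strand. Rnu2-10 (chr11:101658238-101658428) and Rnu1b1 (chr3:96359953-96360117) were outside other genes.

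Detection was sparse. Of the 1387 snRNA genes, 1299 were at 0 in all 12 tables and 88 were above 0 in at least 1. Among members, 12 were above 0 in every table, namely 10 U1a genes and the U4 genes, and no member was above 0 in only 1 compartment. At the edge of the rule, Gm25813, Gm23240, Gm25541, Gm23143, Gm25313 and Rnu5g were above 0 in exactly 6 tables, and Gm22710, with a highest FPKM of 86.7, was left out with 5. In the deposited confidence bounds of single libraries, 270 of the 378 member values above 0 (71.4%) had a lower bound of 0, so most single values were not separated from 0 by the authors' own bounds. All 40 members had a mean of at least 1 after scaling and entered the test.

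Libraries fell into 2 sets that the labels do not name. In axonal replicates 1 to 6, snRNA genes took 0.0870, 0.0502, 0.368, 0.551, 0.819 and 0.546% of all FPKM. The somatodendritic shares, in the same order, were 0.171, 0.114, 0.384, 1.66, 1.55 and 1.13%. Replicates 1 and 2 were below replicates 3 to 6 in both compartments. Small nucleolar RNA genes showed the same gap, with 0.0218 to 0.105% in replicates 1 and 2 and 0.347 to 1.13% in replicates 3 to 6. Replicates 1 and 2 are therefore told apart from replicates 3 to 6 for the snRNA genes on which the results turn, while markers, other RNA classes and protein genes are given over all 6 libraries except where stated. This split was seen in the data, partly in the snRNA values themselves, and is not a labelled batch.

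Of the markers that define motoneurons, Chat and Mnx1 were listed at 0 in all 12 libraries. Genes that every cell uses were also listed at 0 in many libraries, such as Gemin2 in 10 of 12 and Lsm5 in 9 of 12, so a listed 0 does not show absence. The summed scaled FPKM of the motoneuron markers ranged from 2.54 to 11.2 in axons and from 2.84 to 11.1 on the somatodendritic side. General neuron markers summed to 1563 to 2159 and 1910 to 2451, and those of astrocytes and radial glia to 78.0 to 521 and 263 to 398. Microglial markers ranged more widely in axons, from 0.293 to 157 against 11.2 to 34.4, with the highest axonal sum in replicate 5. Erythroid markers summed to 4.21 to 50.8 in axons, and on the somatodendritic side to 6.19 in replicate 3 and 0 in the other 5 libraries. Endothelial markers summed to 0.934 to 22.4 and 0 to 2.66, and oligodendrocyte markers to 7.95 to 60.7 and 12.0 to 61.0. Genes at an FPKM of at least 1 numbered 11088 to 14620 per library apart from somatodendritic replicate 4, which had 7273. The part of cell makeup and depth in the snRNA values was not tested, and fewer cells of a type cannot be told apart from less RNA per cell. Smn1 itself had scaled FPKM of 8.93, 17.5, 0, 7.58, 56.2 and 6.29 in axonal replicates 1 to 6 and of 4.28, 0, 0, 0, 15.6 and 0 in somatodendritic ones, and without a control group these values do not check the knockdown.

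**Figure D1:**
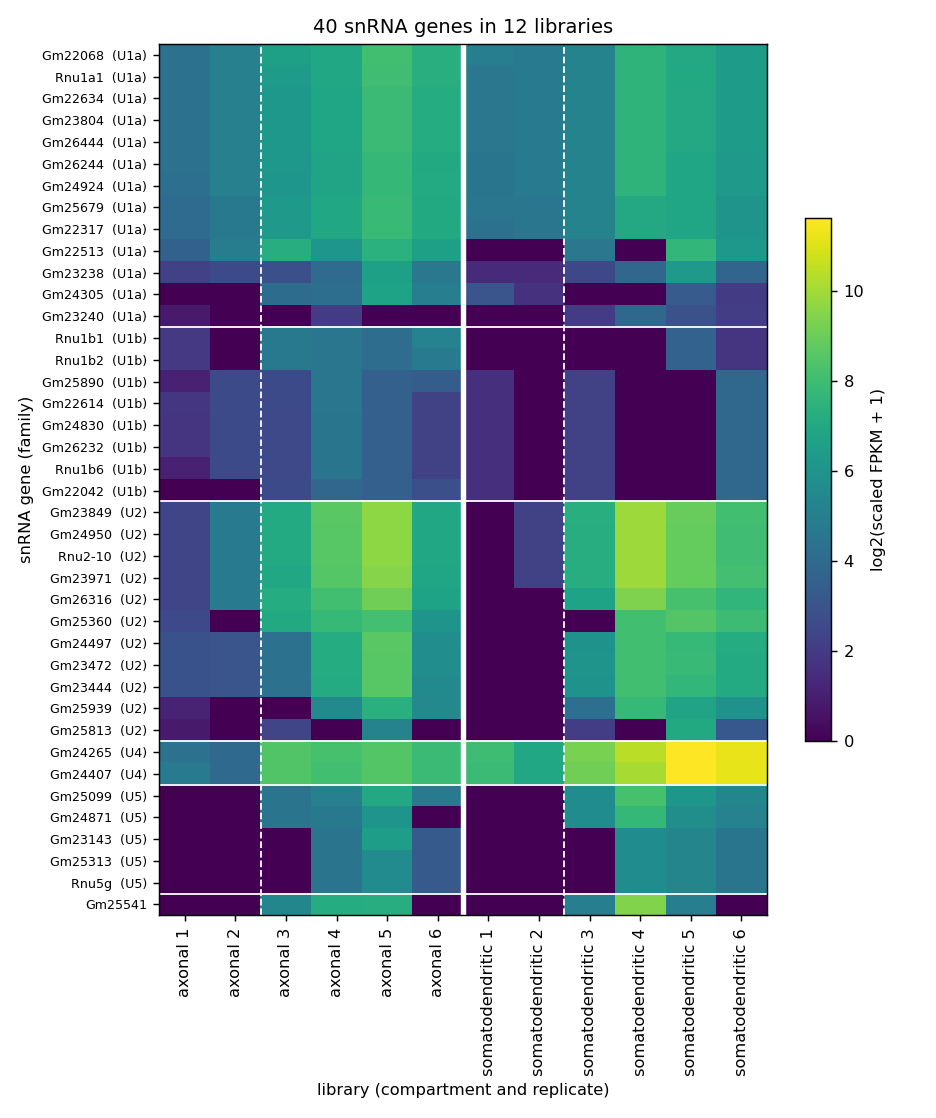
Rows are the 40 snRNA genes by family, columns the 12 libraries, and colour is log2(scaled FPKM + 1); the thick white line parts the compartments and dashed lines part replicates 1 and 2 from 3 to 6. The U4 genes are brightest in somatodendritic replicates 3 to 6, U5 is at 0 in replicates 1 and 2 of both compartments, and U1b is at 0 in more somatodendritic than axonal libraries.

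Values below are FPKM after scaling each library by the median ratio over 5607 genes, compared between compartments with limma on log2(scaled FPKM + 1) over 14122 genes. Of these genes 1 was called at an adjusted p below 0.05 (Benjamini-Hochberg), which is 0.00708% of those tested, and 0 of the 40 members were called. At an unadjusted p below 0.05 there were 8 members, against 1248 of all genes (8.84%). These 8 were 6 U1b genes with higher axonal values and the U4 genes with lower ones. Genes within each of these groups are near copies whose values were not independent. The 8 are therefore not 8 separate results, and the count is not shown to exceed the share of all genes. Axonal and somatodendritic libraries did not overlap for 100 genes (0.708%), and for 0 members. An exact rank-sum test called 0 genes, with 1071 at an unadjusted p below 0.05, 2 of them members. With 6 against 6 libraries this test cannot give a p below a fixed floor. At that floor, a call over 14122 genes would need many more than 100 genes without overlap, so its 0 calls decide nothing.

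The U4 genes had the highest mean level of the 40 members and lower axonal than somatodendritic values within both sets of replicates. Gm24265 had scaled FPKM of 19.7, 14.9, 352, 300.0, 363 and 238 in axonal replicates 1 to 6. Its somatodendritic values, in the same order, were 258, 119, 623, 1343, 3112 and 2372. Every somatodendritic library was above every axonal one within replicates 1 and 2 and within replicates 3 to 6. The share of all genes that part in this way within a set was not counted, so this is a description. Across the sets, somatodendritic replicates 1 and 2 fell below the axonal values of replicates 3 to 5. Axonal replicate 6, at 238, lay between those somatodendritic values. Its twin Gm24407 had 26.3 and 14.9 in axonal replicates 1 and 2 and 238 to 363 in replicates 3 to 6, against 243 and 119, and 542 to 3058, on the somatodendritic side.

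Over all 12 libraries the axonal minus somatodendritic difference of Gm24265 was -2.66 ± 1.09 on the log2 scale (SE, 6 against 6 libraries), with a limma adjusted p of 0.523. That of Gm24407 was -2.51 ± 1.05, with a limma adjusted p of 0.530. When the 2 sets of replicates were given a term of their own, the differences were the same size, 8 of 14122 genes were called (0.0566%), and the U4 genes were 2 of those 8, both lower in axons, with limma adjusted p-values of 0.0103 for Gm24265 and 0.0265 for Gm24407. Because that term rests on a split seen in these data, its p-values are not independent of it. With the term, leaving out 1 library at a time kept Gm24265 called in 11 of 12 fits, and without axonal replicate 2 its limma adjusted p was 0.0535. Gm24407 was called in 5 of 12 such fits, and its limma adjusted p was 0.0535, 0.0632 and 0.0590 without axonal replicates 2, 3 and 5 and 0.0614, 0.0516, 0.0728 and 0.0859 without somatodendritic replicates 1, 2, 5 and 6. Within replicates 3 to 6 alone, 7 of 13569 genes were called (0.0516%) and 0 members, with a difference for Gm24265 of -2.35 and a limma adjusted p of 0.129. Within replicates 1 and 2 alone the difference was -3.28, with a limma adjusted p of 0.0994.

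The U4 genes also had the fewest deposited lower bounds of 0, in 2 of 12 libraries each. For Gm24265 that was the case in axonal replicates 1 and 2. In somatodendritic replicate 5 the deposited FPKM of 2970 had bounds of 2419 and 3522, and in axonal replicate 3 the deposited FPKM of 325 had bounds of 115 and 535. Genes beside the U4 genes gave little signal. Sirt4, a mitochondrial sirtuin gene at lower coordinates, was above 0 in only axonal replicates 1 and 4, at scaled FPKM of 2.53 and 10.0, and the pseudogene Gm13836 at higher coordinates in only axonal replicates 1 and 2, at 1.64 and 37.1.

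**Figure D2:**
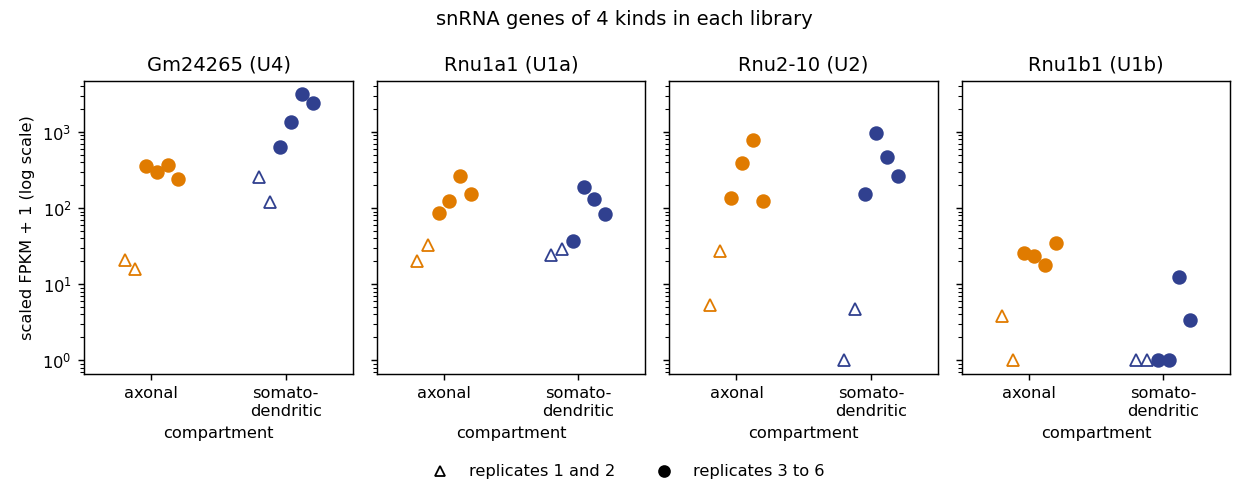
Each point is 1 library; the y axis is scaled FPKM + 1 on a log scale, triangles are replicates 1 and 2 and circles replicates 3 to 6. Gm24265 (U4) is higher on the somatodendritic side within each set of replicates, Rnu1a1 (U1a) and Rnu2-10 (U2) overlap within replicates 3 to 6, and Rnu1b1 (U1b) is at 0 in 4 somatodendritic libraries.

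U1a, the main form of U1, overlapped between compartments. Rnu1a1 had scaled FPKM of 19.0, 32.0, 85.5, 121, 260 and 154 in axonal replicates 1 to 6 and of 23.1, 27.8, 35.4, 185, 132 and 83.0 in somatodendritic ones. Values overlapped in both sets of replicates, those of replicates 1 and 2 were the lowest, and the difference was 0.40 ± 0.63 (SE) with a limma adjusted p of 0.856. Of the 13 U1a genes, 12 had a difference above 0, with a median of 0.38, beside 8681 of 14122 genes above 0 and a median of 0.20 for all tested genes. With libraries rescaled to a common sum, 7 of the 13 were above 0, while 12 were still above that scaling's median of all genes, -0.07. Within replicates 1 and 2, 4 of 12 tested U1a genes were above 0. U1a limma adjusted p-values ranged from 0.593 to 0.886.

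Some U1a copies that differ from Rnu1a1 had other patterns. Gm22513 differs by T60C, a substitution that Rnu1b1 also carries, and had 11.3, 28.1, 151, 67.3, 170 and 95.1 in axonal replicates 1 to 6. On the somatodendritic side it had 0, 0, 23.3, 0, 208 and 72.1, a difference of 2.89 ± 1.41 (SE) with a limma adjusted p of 0.593. The shortened Gm23240 was the only U1 gene with lower axonal values, at 0.765, 0, 0, 3.04, 0 and 0 against 0, 0, 3.16, 14.2, 6.25 and 3.26. Its difference was -1.35 ± 0.69 (SE), with a limma adjusted p of 0.595. Gm22513 was singled out after its values were seen.

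All 8 U1b genes had differences above 0, beside 8681 of 14122 genes, and none was called. None of the 8 was above 0 in more than 3 somatodendritic libraries, so each met the rule of 6 tables only with its axonal values. Their shared direction is therefore not independent of how members were chosen, and near copies do not count as separate results. Rnu1b1 had scaled FPKM of 2.80, 0, 25.1, 22.3, 16.9 and 33.9 in axonal replicates 1 to 6 and of 0, 0, 0, 0, 11.5 and 2.39 in somatodendritic ones. Within replicates 3 to 6 every axonal value was above every somatodendritic one, and the share of all genes that part in this way was not counted. The difference was 2.51 ± 0.90 (SE), with a limma adjusted p of 0.455 and a range of 2.17 to 3.19 when 1 library was left out. Rnu1b2, with the same sequence, had 27.7 in axonal replicate 6 and otherwise the values of Rnu1b1, and its limma adjusted p was 0.457.

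Rnu1b6 and Gm25890 carried a second pattern. Rnu1b6 had 1.11, 5.05, 4.98, 22.1, 10.8 and 3.68 in axonal libraries and 2.09, 0, 3.83, 0, 0 and 13.7 in somatodendritic ones, a difference of 1.47 ± 0.75 (SE) with a limma adjusted p of 0.595. Gm25890 differed by 1.67 ± 0.75 (SE), with a limma adjusted p of 0.544. Somatodendritic replicate 6 was within the axonal range for both. The 8 differences lay between 0.84 and 2.51 with a median of 1.59, and all were above 0 under each scaling tried. Somatodendritic replicates 2 and 4 had 0 for every U1b gene, and replicate 4 was the library with the fewest detected genes; the part of detection in these values was not tested. Every U1b value above 0 had a deposited lower bound of 0.

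U2 differences had opposite signs in the sets of replicates, which was not tested. Rnu2-10 had scaled FPKM of 4.32, 26.3, 136, 386, 781 and 122 in axonal replicates 1 to 6, against 0, 3.67, 150.2, 967, 463 and 265 in somatodendritic ones. Axonal values were the higher ones in replicates 1 and 2, and in replicates 3 to 6 the compartments overlapped. In replicates 1 and 2 every Rnu2-10 value was 0 or had a deposited lower bound of 0. The difference was 0.52 ± 1.86 (SE), with a limma adjusted p of 0.944, and it was -0.45 within replicates 3 to 6. Gm23849, Gm24950 and Gm23971, which share the Rnu2-10 sequence, differed by 0.44 to 0.52. Gm26316 differed by 1.05 and Gm25360 by 1.16, and Gm23472 and Gm24497 by 0.47 and 0.48. Of the 11 U2 genes, 9 were above 0 over all libraries and under each scaling, all 9 tested were above 0 in replicates 1 and 2, and 1 of 11 was above 0 in replicates 3 to 6. U2 limma adjusted p-values ranged from 0.881 to 0.955.

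U5 appeared in replicates 3 to 6 alone. Rnu5g had 0, 0, 0, 21.1, 46.8 and 8.77 in axonal libraries and 0, 0, 0, 49.5, 38.0 and 21.8 in somatodendritic ones, and the difference was -0.35 ± 1.29 (SE) with a limma adjusted p of 0.946. Gm25099 was the U5 gene seen most often, in 8 libraries, with 21.4 to 127 in axons and 38.8 to 297 on the somatodendritic side in replicates 3 to 6. All 5 U5 genes had differences below 0, from -1.51 to -0.21, beside 5441 of 14122 genes below 0. All 5 were also below 0 under each other scaling tried, which uses the same values. The 5 are near copies, and Gm25313 had the values of Rnu5g, so they are not 5 separate results. Gm25541 had 0, 0, 39.4, 146, 148 and 0 in axonal and 0, 0, 30.3, 683, 30.0 and 0 in somatodendritic libraries, with its highest value in the library with the fewest detected genes.

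**Figure D3:**
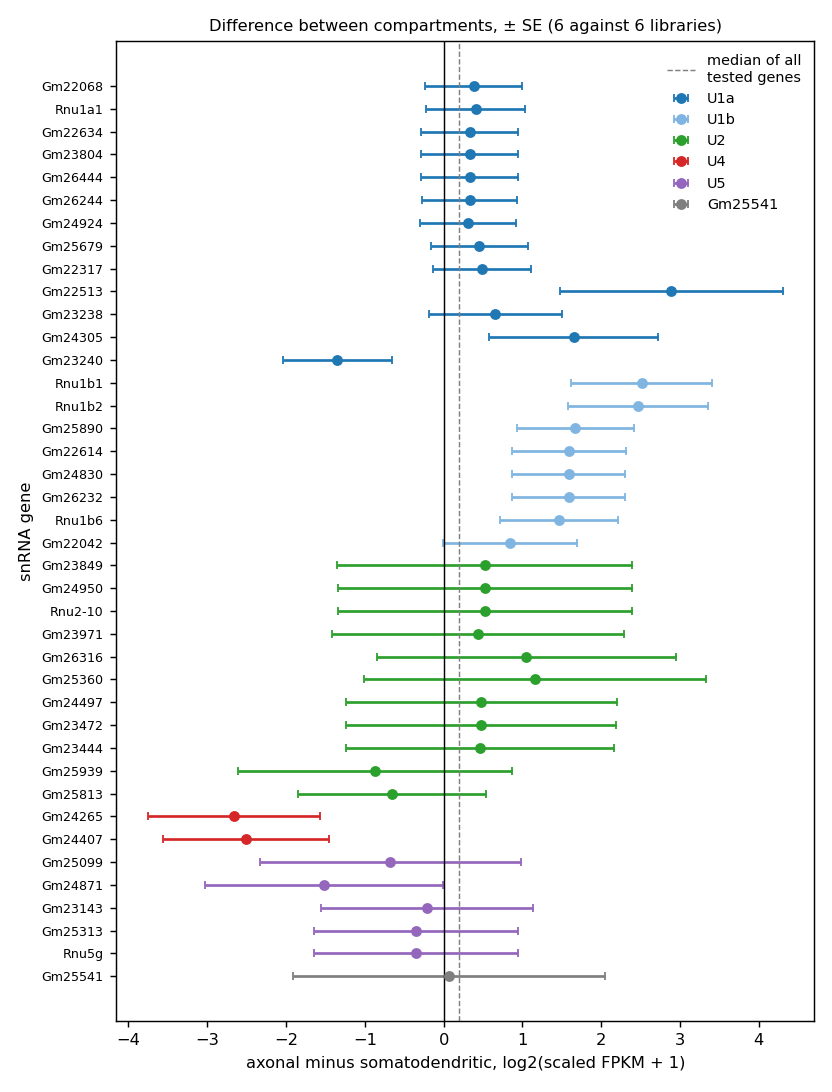
Each point is the axonal minus somatodendritic difference of 1 snRNA gene on the log2(scaled FPKM + 1) scale, with its SE over 6 against 6 libraries; the dashed line is the median of all tested genes, 0.20. The U4 genes lie at -2.66 and -2.51, the U1b genes between 0.84 and 2.51, and the error bars of all 11 U2 genes reach across 0.

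The makeup of the snRNA signal was taken as each family's share. U4 took 15.9, 5.77, 27.1, 12.3, 7.97 and 16.5% of the summed FPKM of the 40 members in axonal replicates 1 to 6. Its somatodendritic shares, in the same order, were 68.5, 48.4, 45.1, 21.8, 54.7 and 60.8%. Within replicates 1 and 2 the compartments were apart, and in replicates 3 to 6 somatodendritic replicate 4 lay below axonal replicate 3. U1a took 24.8 to 62.0% in axons and 10.2 to 48.6% on the somatodendritic side, U2 took 16.8 to 57.9% and 0 to 52.0%, and U5 took 0 to 4.07% and 0 to 5.90%.

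**Figure D4:**
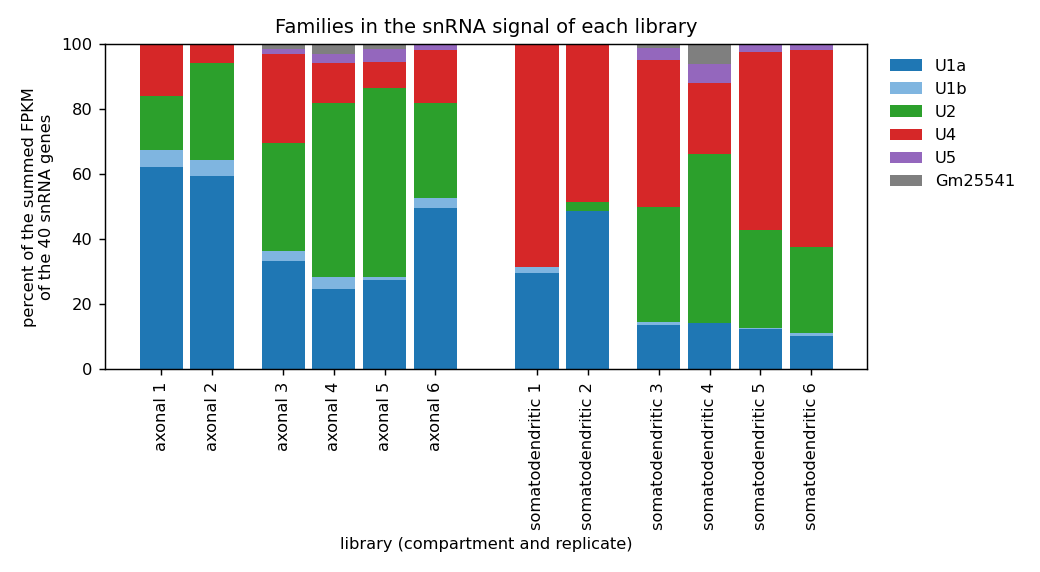
Each bar is 1 library and its colours are the percent of the summed FPKM of the 40 snRNA genes in each family. U4 takes 5.77 to 27.1% of axonal and 21.8 to 68.5% of somatodendritic bars, and U2 is small or at 0 in somatodendritic replicates 1 and 2.

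A ratio within a library does not depend on how libraries are scaled. Gm24265 over Rnu1a1 was 1.04, 0.464, 4.12, 2.48, 1.40 and 1.54 in axonal replicates 1 to 6. It was 11.2, 4.30, 17.6, 7.25, 23.6 and 28.6 in somatodendritic replicates 1 to 6, all above the axonal values, with medians of 14.4 and 1.47. The closest values were 4.12 in axonal replicate 3 and 4.30 in somatodendritic replicate 2. In both libraries the deposited lower bound of Rnu1a1 was 0, as in 9 of its 12 values, so the parting of the ratios is uncertain. The ratio was formed after the values were seen, so it is a description with no test. A difference in this ratio would mean unequal change of U4 and U1a and would not show which of them changed. The summed U4 over summed U1 values were 0.0895 to 0.746 in axons and 0.997 to 5.38 on the somatodendritic side.

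U2 over U1 turned between the sets. Rnu2-10 over Rnu1a1 was 0.228 and 0.823 in axonal replicates 1 and 2 against 0 and 0.132 in somatodendritic ones. The values of both genes in these replicates were 0 or had a deposited lower bound of 0, so the turn is uncertain. In replicates 3 to 6 it was 0.793 to 3.19 in axons and 3.19 to 5.22 on the somatodendritic side. The axonal library at 3.19, replicate 4, was level with the lowest somatodendritic one to within the digits given.

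**Figure D5:**
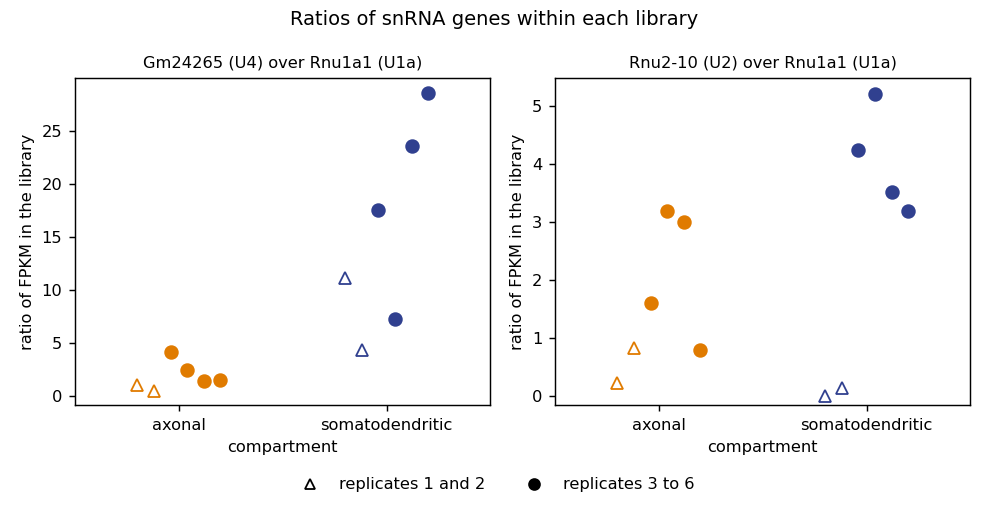
Each point is the ratio of FPKM of 2 snRNA genes in 1 library, on a linear axis from 0; triangles are replicates 1 and 2 and circles replicates 3 to 6. Gm24265 over Rnu1a1 is 0.464 to 4.12 in axons and 4.30 to 28.6 on the somatodendritic side, and Rnu2-10 over Rnu1a1 is lowest in somatodendritic replicates 1 and 2.

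Of 6 tested long non-coding RNAs in a list of RNAs kept in the nucleus, 0 were called, 5 had differences above 0 and 1 below, with a median of 0.44. Malat1 had 959 ± 332 in axons and 502 ± 101 on the somatodendritic side (SD, 6 libraries each), with a limma adjusted p of 0.341. Its axonal mean was also the higher one in replicates 1 and 2, at 1160 against 560, and in replicates 3 to 6, at 859 against 472. Meg3 had 318 ± 112 and 178 ± 47.2 (SD, 6 libraries each), with a limma adjusted p of 0.388. Rian had a lower axonal mean, at 768 ± 80.6 against 869 ± 115 (SD, 6 libraries each), with a limma adjusted p of 0.712, and the means of Miat were 12.1 and 12.4. Of the 261 tested snoRNA genes 0 were called, 121 had differences above 0 and their median was -0.22. The 40 snRNA members had 30 differences above 0 and a median of 0.46, beside 0.20 for all tested genes, and that median was 0.000541 without axonal replicate 5, 0.05 and 0.10 without somatodendritic replicates 1 and 2, and 0.92 without axonal replicate 1. The test of U4 against these classes was not run.

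Genes that make and carry snRNPs gave 0 calls in each list, and these lists were drawn up with earlier results of these data known. The SMN complex had 8 tested genes, 5 of them above 0 and with a median of 0.55, and Smn1 differed by 2.15 ± 0.92 (SE) with a limma adjusted p of 0.523. Gemin5, which binds snRNA in the complex, had a limma adjusted p of 0.636. Of the 8 Sm protein genes 3 were above 0, with a median of -0.12. Snrpn, the neuronal form of SmB, had 90.2 ± 13.8 in axons and 149.7 ± 32.3 on the somatodendritic side (SD, 6 libraries each). Its libraries did not overlap, as for 100 of all 14122 tested genes (0.708%). The difference was -0.71 ± 0.19 (SE), with a limma adjusted p of 0.362.

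Major snRNP proteins counted 16 tested genes, 10 of them above 0, with a median of 0.38. Prpf31, a protein of the U4/U6 part of the tri-snRNP, had 16.0 to 30.7 in axons and 0 to 27.4 on the somatodendritic side, with a limma adjusted p of 0.448. Prpf4, another U4/U6 protein, differed by -0.03 ± 0.50 (SE) and Prpf3 by 0.50 ± 0.84. Snrpa, the U1A protein, differed by 0.83 ± 0.30 (SE), and Snrpa1, a U2 protein, by -0.81 ± 0.36, with limma adjusted p-values of 0.460 and 0.544. Medians were 0.01 for the 8 LSm genes, 0.24 for 19 genes of snRNA transcription and end processing, 0.13 for 17 genes of cap, export, import and modification, and 0.45 for 7 minor snRNP genes.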

How the data were processed

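The 12 libraries, 6 axonal and 6 somatodendritic, were grouped and numbered by their titles. The authors deposited FPKM with confidence bounds per gene, in the layout of a Cufflinks gene table, per the file headers. The submitters' processing notes name Cufflinks 2.2.1 and build GRCm38. The sources used here do not give the aligner, the annotation release, strand use or the treatment of reads with several matches, and library depth is unknown. FPKM of transcripts this short depends on the length correction and on fragment sizes kept in the library.

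Members and gene lists were chosen with earlier results of these data known. Libraries were scaled by the median of ratios over 5607 genes above 0 in all 12. Genes with a mean of at least 1 were kept (14122), and log2(scaled FPKM + 1) was tested with limma 3.58.1 in R 4.3.3 (trend, robust, compartment only, two-sided, Benjamini-Hochberg at 0.05). Differences of genes listed at 0 in some libraries depend on the pseudocount, and the scale understates the change of low genes. The limma fit was tested on simulated independent values with known changes, and the rank-sum step on a known case. Scaling, family assignment and the term for the sets of replicates were not tested in that way. Families were assigned with BLAST 2.17.0 (blastn, at least 50 aligned bases, E at most 1e-10) against snRNA genes with a family symbol in GENCODE M21 and the gene the tables call U4. U1 genes closest to Rnu1a1 were called U1a and the others U1b. The genes named were every member with an Rnu symbol, the 10 of highest mean, called members, and the 3 of smallest p in each direction; others were named after their values were seen. The alternatives changed the scaling, the pseudocount (0.1 and 5) or the filter, or used the replicate number as a block, plain moderation, an exact rank-sum test, 1 library fewer, each set of replicates alone or a term for the sets. The term combined with each library left out was added after the data were examined.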

Additional observations from a re-analysis of the deposited data

Results flagged for a closer look

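For the 17 named members, the snRNA share of FPKM and the number of detected members, each compartment's 6 libraries were searched for a library far from the others. Of 38 series in all, 7 were flagged. The rule flags about 1 in 20 by chance for independent, normally distributed values. These series hold many zeros, skewed values and near copies, so that rate does not apply and 7 is not shown to be an excess. A pair of U2 genes stood high in axonal replicate 5, Gm23472 at a scaled FPKM of 388.1 and Gm24497 at 393, against 6.66 to 144.5 in the other axonal libraries. Axonal replicate 4 was high for the shortened U1 gene Gm23240, at 3.04 against 0 to 0.765. The U1b genes Rnu1b1 and Rnu1b2, which share a sequence, were both at 11.46 in somatodendritic replicate 5, against 0 to 2.39 in the others. In somatodendritic replicate 6, Gm25890 was at 13.77 and Rnu1b6 at 13.68, against 0 to 3.86 and 0 to 3.83. Deposited lower bounds were 0 for every value of Gm23240 and of the U1b genes.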

How the results depend on the processing

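With all libraries, 1 gene was called. The count was 0 by the exact rank-sum test (1071 at an unadjusted p below 0.05), 3 without the variance trend and robust moderation together, 3 at a pseudocount of 0.1, 4 in replicates 1 and 2, 7 in replicates 3 to 6 and 8 with the term for these sets. The rank-sum count was limited by the smallest p that test can give with so few libraries. Leaving out 1 library gave 1 to 16 calls with or without that term. Without the term, dropping axonal replicate 6 gave 11, replicate 1 gave 3, replicate 2 or 4 gave 2, and any other library 1. With the term, dropping axonal replicate 6 gave 16, replicate 1 gave 9, replicate 4 gave 6, and any other library 1 to 3. No member was called except the U4 genes, 2 members with the term and 0 to 2 members when 1 library was also left out.

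With the replicate number as a block, 5 genes were called, 2 of them members, Gm24265 and Gm24407, with limma adjusted p-values of 0.0324 and 0.0380. The labels do not say that a number marks a shared culture or day, and the numbers were not taken as pairs: libraries sharing a number deviated from their group means with correlations of 0.000411 to 0.242 across genes, and 3 of the 6 numbers matched their own best.

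The U4 and U1b genes named kept their direction in every alternative that gave them a value. For U1b that direction was not independent of how members were chosen. Directions turned for U2 and others, with no call. At a pseudocount of 5, Gm23472 was -0.0675 and Gm24497 -0.0588. In replicates 1 and 2, Rnu1a1 was -0.036. In replicates 3 to 6, Gm23472 was -0.79, Gm24497 -0.78, Gm23971 -0.59, Gm23849 -0.46, Gm24950 and Rnu2-10 -0.45 and Gm26316 -0.23. With 1 library left out, with or without the term, the ranges were -0.50 to 1.12 for Gm23472, -0.49 to 1.13 for Gm24497, -0.69 to 1.35 for Gm23849, -0.78 to 1.25 for Gm23971, -0.69 to 1.36 for Gm24950 and Rnu2-10, -0.13 to 2.21 for Gm25360, -0.0204 to 1.85 for Gm26316 and -1.15 to 0.37 for Rnu5g. The cause of these turns was not tested. The median of all genes moved by -0.20 with FPKM as deposited and by -0.27 with a common sum. The authors' bounds limit most members: the lower bound was 0 in 9 of 12 values of Rnu1a1, 4 of 11 of Rnu2-10 and 7 of 7 of Rnu1b1.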

Other observations

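Some snRNA families stayed outside the members. U6, which pairs with U4, was represented by 833 matching genes, of which 23 were above 0 in any library and none in more than 2, and Rnu6 itself was at 0 throughout. The summed scaled FPKM of the U6 genes was 7.91, 39.2, 69.6, 171, 87.0 and 157 in axonal replicates 1 to 6 and 0, 0, 35.7, 161, 101 and 0 in somatodendritic ones. Rnu11 and Rnu12, of the minor spliceosome that removes a rare class of introns, were each above 0 in 3 libraries, with highest values of 34.8 and 25.3. Rnu7, whose RNA serves the processing of histone messages, was at 0 in all 12, as were all 29 genes matching U7. Gm22122 (chr6:48289228-48289427), a U4 match outside the members, was above 0 in somatodendritic replicates 3, 5 and 6 only, at 19.1, 56.7 and 19.7. Gm22710, just short of the rule, had 29.4 and 74.5 in axonal replicates 4 and 5 and 30.5, 90.8 and 63.1 in somatodendritic replicates 3, 5 and 6.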
